A study of Bos taurus with 22 samples.

Results

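Mitotic cell cycle genes are a set of 50 genes that cells transcribe when they copy their DNA and divide. They were found by symbol in the count table of the bovine jejunal mucosa, which lists 27570 genes, 21855 of them with at least 1 count, and all 50 were present and passed the filter on low counts in every comparison. Of the 50, 9 act at the G1/S transition or in S phase (CCNE1, CCNE2, CDC25A, RRM2, TYMS, TK1, E2F1, E2F2 and MYBL2) and 41 act in G2 or mitosis.

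The mucosa came from 22 Holstein steers of 220 to 294.1 kg body weight in a factorial design with 4 treatments, in which the animals had been grouped by weight into 6 blocks, and the replicate number of a steer is the block its label names. Every steer received an abomasal infusion of raw corn starch at 3.94 g per kg body weight per d for 7 d, with either sodium caseinate at 1.30 g per kg per d or water, and subcutaneous injections of either glucagon-like peptide 2 (GLP-2) at 100 µg per kg per d or the vehicle, which contained bovine serum albumin (BSA). Control steers (n = 5) received water and BSA, GLP-2 steers (n = 5) water and GLP-2, casein steers (n = 6) casein and BSA, and casein + GLP-2 steers (n = 6) casein and GLP-2. The questions were whether the cell cycle genes differed between the injections, between the infusions and between S and G2/M genes, and whether between steers they followed the genes of lymphoid follicles or those of intestinal crypts.

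Entry into S phase is driven by E2F transcription factors and cyclin E, and entry into mitosis by cyclin A, cyclin B and the kinase CDK1, after which the anaphase-promoting complex destroys the cyclins and lets the chromosomes separate. The promoters of the G2/M genes are opened late in the cycle by B-Myb and FOXM1. In the small intestine, dividing cells are found in the crypts, where stem and transit-amplifying cells renew the epithelium, and in the germinal centers of lymphoid follicles, where B cells multiply. GLP-2 is an intestinal peptide known for increasing growth of the mucosa. MS4A1, which encodes the B cell surface protein CD20, served as the follicle marker, and the mean log2 CPM (TMM-normalised counts relative to library size) of 10 crypt genes, LGR5, OLFM4, ASCL2, SMOC2, AXIN2, RNF43, ZNRF3, EPHB2, EPHB3 and SOX9, as the crypt score.

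Library totals ranged from 8809666 to 28447810 counts. The mucosal label held in the markers: all 8 epithelial and all 8 villus enterocyte genes looked at had counts in every steer, and their summed levels were 2658 to 16519 CPM and 1613 to 93370 CPM. Other cells were present in amounts that differed widely between steers, since 8 smooth muscle genes summed to between 31.3 and 1446 CPM and 7 stromal genes to between 65.9 and 2041 CPM. MS4A1 separated the steers into 4 with more than 100 CPM, a value chosen after the levels had been seen, and 18 with at most 35.2 CPM. The 4 were control replicates 1, 3 and 5 and casein replicate 3, with 325, 293, 182 and 366 CPM; they are called MS4A1-high, and none had received GLP-2. Results that rest on these 4 steers are therefore given with and without them. In the same order, their summed epithelial genes were 7580, 3525, 2658 and 2807 CPM. The values of control replicates 3 and 5 and casein replicate 3 were the lowest of all steers. Their smooth muscle sums were 122, 657, 1446 and 286 CPM, and their stromal sums 608, 1042, 1247 and 1094 CPM. The part of these cells in the slopes on MS4A1 was not tested. LGR5, which marks crypt stem cells, reached at most 3.14 CPM in any steer and was listed at 0 in 10 of 22 steers.

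On a scale that accounts for gene length (FPKM), the genes covered a wide range of levels. BUB3, which loads checkpoint proteins onto kinetochores, had the highest mean at 26.9 ± 7.73 FPKM (SD, n = 22), followed by BIRC5, which encodes survivin, at 22.2 ± 15.5 FPKM. The enzymes of DNA precursor synthesis were next, with TYMS (thymidylate synthase) at 21.2 ± 11.4 FPKM and RRM2 (the small subunit of ribonucleotide reductase) at 19.9 ± 13.1 FPKM. The lowest were the kinetochore motor CENPE at 2.21 ± 1.28 FPKM and the phosphatase CDC25C at 1.79 ± 0.981 FPKM. MKI67, which encodes the proliferation marker Ki-67 that coats mitotic chromosomes, stood at rank 18 of the 50 with 11.1 ± 6.59 FPKM.

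Steers differed far more in some of these genes than in others. Between the highest and the lowest steer, CPM differed 20.5-fold for MAD2L1, 17.5-fold for E2F2, 16.4-fold for MYBL2 and 14.3-fold for CDC20, and 2.72-fold for BUB3, 3.72-fold for INCENP and 4.20-fold for KIF20A. MAD2L1, which encodes the checkpoint protein Mad2, had only 8 to 232 counts per steer and lies on an unplaced scaffold (ARS-UCD1.2, NKLS02000723.1, start 7006, end 14630, minus strand), so that its spread also carries counting error. The lowest count of MKI67 was 497.

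The 50 genes varied together between steers. By their mean log2 CPM the 5 highest steers were casein replicate 3 (5.39), control replicates 3 and 1 (both 5.27), casein replicate 1 (5.06) and control replicate 5 (5.02), a ranking that holds all 4 steers with MS4A1 above 100 CPM. The lowest steer was casein + GLP-2 replicate 1 (3.30). The highest steer that had received GLP-2 was GLP-2 replicate 1 (4.94), which had an MS4A1 level of 5.19 CPM and the highest crypt score of all steers, 3.64. That steer also had 105 CPM of the crypt gene SMOC2, 805 CPM of summed smooth muscle genes and 2041 CPM of summed stromal genes, the highest stromal sum measured, and the part of these cells in its values was not tested. Across the 22 steers, as a description, log2 CPM of MKI67 was most closely followed by KIF2C, the microtubule-depolymerizing kinesin MCAK (r = 0.925), and by KIF4A (r = 0.911) and BUB1B (r = 0.907). MAD2L1 (r = 0.441), CCNE1 (r = 0.570) and CDC25A (r = 0.627) followed it least. All points share their library, so these values also carry what the libraries have in common.

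**Figure D1:**
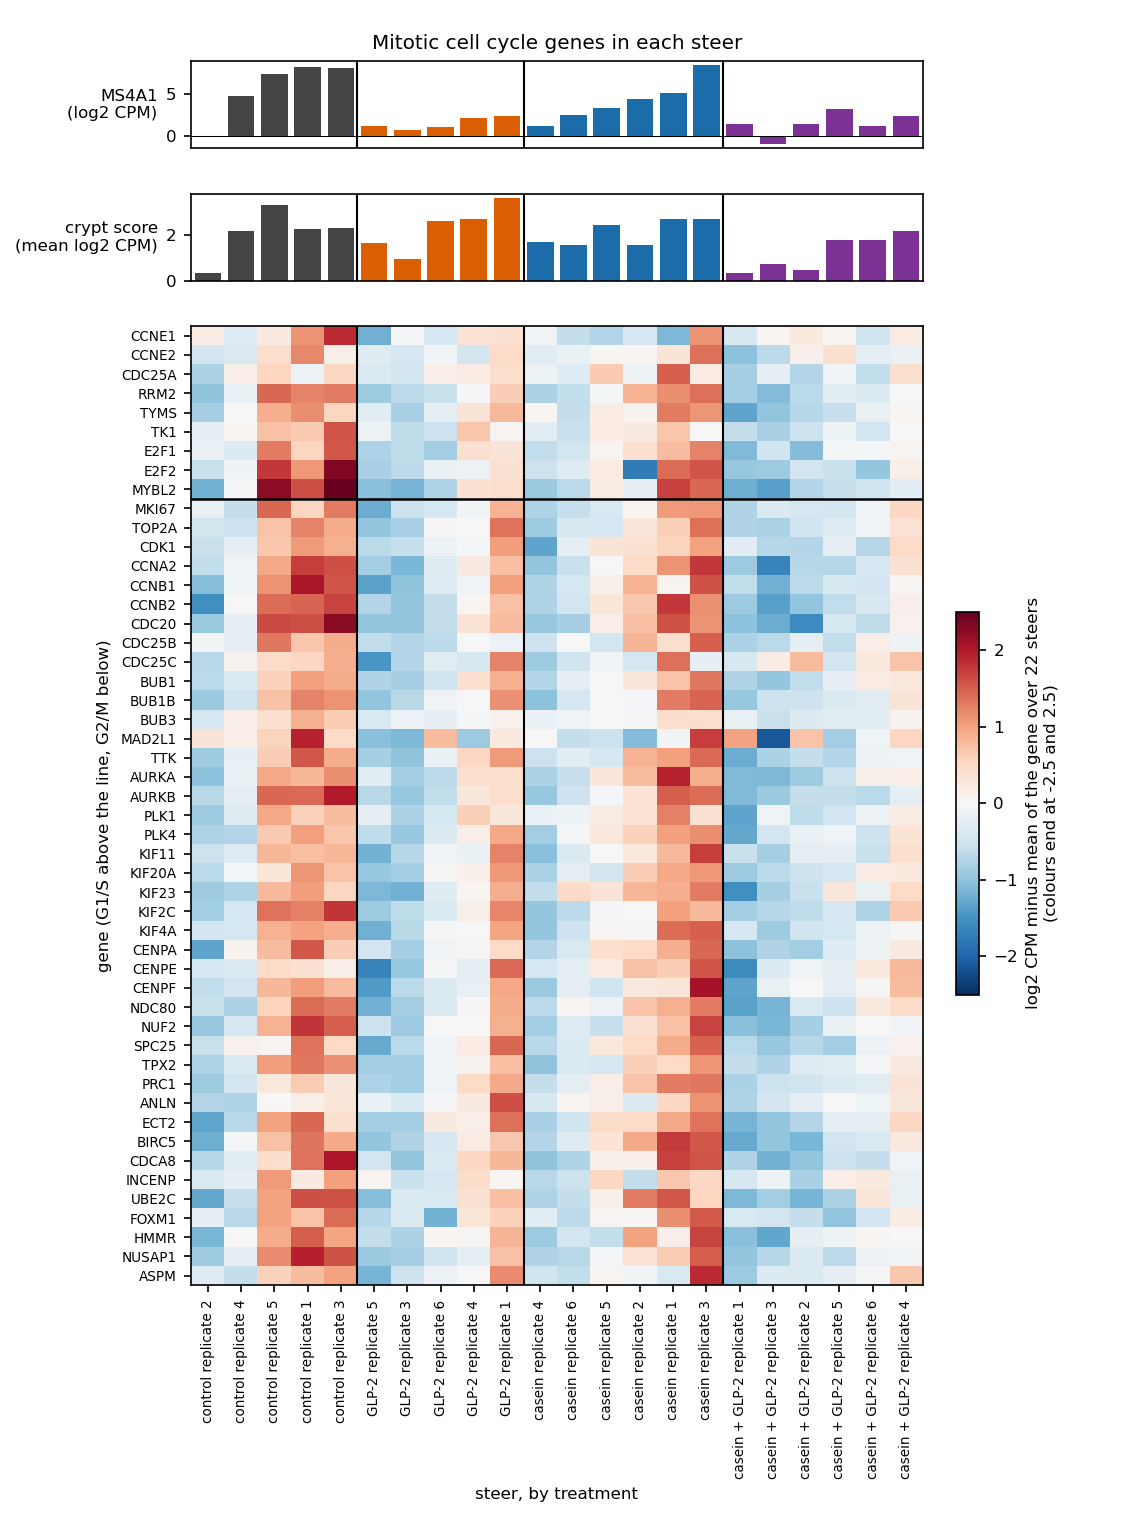
Log2 CPM of the 50 genes (rows, 9 G1/S genes above the line and 41 G2/M genes below it) in each of the 22 steers (columns, by treatment), as the difference from the gene's mean over all steers, red for higher and blue for lower, with bars for MS4A1 (log2 CPM) and the crypt score (mean log2 CPM) on top. The red columns are casein replicates 3 and 1 and control replicates 1, 3 and 5, and GLP-2 replicate 1 is the most red column among the steers given GLP-2.

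GLP-2 administration was associated with lower levels of these genes. Against BSA, 17 of the 50 genes were lower with GLP-2 at an adjusted p up to 0.05 in the fit without the block (edgeR quasi-likelihood test, Benjamini-Hochberg adjustment over 13928 genes, 11 steers in each group), and none was higher. Of all genes tested 13.5% were called in either direction and 8.37% were called lower. A further 11 genes, compared with 12.6% of all genes, tended to be lower (adjusted p above 0.05 and at most 0.1), 34 were lower at a p up to 0.05 before adjustment, called nominal below (18.1% of all genes), and 49 had a log2 fold change below 0 (49.3% of all genes). The median log2 fold change was -0.70 over the 50 genes and 0.01 over all genes. With the block in the model, 0 of the 50 genes and 0% of all genes were called, 25 of the 50 had a nominal p up to 0.05, 49 were below 0 and the median was -0.62. Of the 17 genes, 16 had an adjusted p between 0.0565 and 0.0978 in that blocked fit, led by BUB3, CDC25B and CCNB2, and CDCA8 had 0.12, so the words fell, rose and called in the account of the injections below hold for the fit without the block. CPM is relative to the library. In bulk tissue, fewer dividing cells, less RNA per dividing cell and a larger share of RNA from other cells therefore cannot be told apart.

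The number of calls rested on single steers. It was 3 without control replicate 3 or casein + GLP-2 replicate 3, 4 without control replicate 1, 6 without GLP-2 replicate 3, 7 without casein + GLP-2 replicate 1, 8 without casein replicate 3, control replicate 5 or GLP-2 replicate 6, 9 without casein replicate 1 or casein + GLP-2 replicate 2 and 11 without casein + GLP-2 replicate 5. It was 27 without control replicate 2 and 30 without GLP-2 replicate 1. The median over the 50 genes stayed between -0.62 and -0.93 in these fits. Without the 4 steers with MS4A1 above 100 CPM, 0 genes were called and 2 had a nominal p up to 0.05, the median was -0.26 and 43 genes were below 0.

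The transcription factors of the late cycle were among the genes that fell. MYBL2, which encodes B-Myb (ENSBTAG00000007783, ARS-UCD1.2 chromosome 13, start 72231694, end 72258247, plus strand), had 87.9, 12.6, 184, 28.2 and 137 CPM in control replicates 1 to 5 and 39.3, 12.8, 37.5, 13.9 and 16.9 CPM in GLP-2 replicates 1, 3, 4, 5 and 6. Its lowest, median and highest values were 15.1, 29.0 and 94.4 CPM with casein and 11.2, 18.3 and 24.1 CPM with casein + GLP-2. Levels above 39.3 CPM were found only in BSA steers, while the lower BSA steers overlapped with those given GLP-2. With 64.9 ± 56.8 CPM (SD, n = 11) in BSA and 20.4 ± 9.69 CPM in GLP-2 steers, MYBL2 had the largest difference of the 50 genes, a log2 fold change of -1.69 (SE 0.416, adjusted p = 0.0226, edgeR). FOXM1, the factor that acts with it on G2/M promoters, went from 10.6 ± 5.98 to 5.80 ± 2.34 CPM (log2 fold change -0.88, adjusted p = 0.0481). Without the 4 MS4A1-high steers the difference of MYBL2 was -0.68 (SE 0.354, adjusted p = 0.384).

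Of the mitotic cyclins and the switch around CDK1, 4 of 6 genes fell, compared with 8.37% of all genes. CDC25B, a phosphatase that starts the activation of CDK1 (ENSBTAG00000008436, chromosome 13, start 51395118, end 51404718, minus strand), had the smallest p of the 50. It had 62.4, 37.3, 74.8, 33.4 and 98.4 CPM in the control steers and 35.4, 23.5, 39.5, 25.3 and 24.9 CPM in the GLP-2 steers. In casein steers it ranged from 27.2 to 111 CPM around a median of 45.3, and in casein + GLP-2 steers from 22.5 to 44.1 CPM around 29.5. The BSA steers below 44.1 CPM overlapped with the steers given GLP-2, and the log2 fold change was -0.94 (SE 0.229, adjusted p = 0.0222). Cyclins CCNB2, CCNA2 and CCNB1 had larger differences with more spread, at -1.25 (SE 0.341, adjusted p = 0.0257), -1.15 (SE 0.344, adjusted p = 0.0342) and -1.12 (SE 0.353, adjusted p = 0.0404). CCNB2 had 26.3 ± 16.2 CPM in BSA and 11.1 ± 5.45 CPM in GLP-2 steers, CCNA2 35.1 ± 22.6 and 16.1 ± 8.44 CPM, and CCNB1 26.4 ± 18.5 and 12.3 ± 6.98 CPM. CDK1 itself, the kinase these cyclins bind, was not called, with 17.8 ± 7.66 and 12.5 ± 6.11 CPM (log2 fold change -0.51, SE 0.264, adjusted p = 0.168). CDC25C, a related phosphatase, had a log2 fold change of -0.10 (adjusted p = 0.845).

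Of 4 members of the chromosomal passenger complex, which corrects faulty attachments of chromosomes to the spindle, 3 fell (8.37% of all genes). AURKB, its kinase Aurora B (ENSBTAG00000001717, chromosome 19, start 27835752, end 27840596, minus strand), had 42.6 ± 28.3 CPM with a range of 12.3 to 93.7 in BSA steers and 17.6 ± 6.95 CPM with a range of 10.96 to 32.5 in GLP-2 steers (log2 fold change -1.29, SE 0.326, adjusted p = 0.0229). BIRC5 went from 50.7 ± 29.5 to 23.8 ± 11.3 CPM (-1.11, adjusted p = 0.0293), and CDCA8, which encodes borealin, from 31.9 ± 23.4 to 15.2 ± 7.81 CPM (-1.08, adjusted p = 0.0462). INCENP, the scaffold of the complex, was not called (log2 fold change -0.39, SE 0.218, adjusted p = 0.207).

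Among 7 genes of the spindle checkpoint and the anaphase-promoting complex, CDC20 and BUB3 fell (8.37% of all genes). CDC20, the activator of the complex, had a lowest, median and highest value of 12.1, 40.1 and 113 CPM in BSA and 7.88, 15.2 and 40.5 CPM in GLP-2 steers, a log2 fold change of -1.39 (SE 0.380, adjusted p = 0.0260). BUB3 had the smallest difference of the 17, with 71.4 ± 19.8 and 52.4 ± 7.35 CPM and a log2 fold change of -0.45 (SE 0.139, adjusted p = 0.0385). UBE2C, the ubiquitin-conjugating enzyme of the complex, tended to be lower (-1.01, adjusted p = 0.0511), as did the checkpoint kinase TTK (-0.82, adjusted p = 0.0833). MAD2L1, at 4.39 ± 3.35 and 3.01 ± 1.90 CPM, was not called (-0.55, SE 0.418, adjusted p = 0.354).

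Of 15 genes of the spindle, its kinesins and cytokinesis 2 passed the threshold, a share near that of all genes given above. These were NUSAP1, which bundles spindle microtubules, with 40.6 ± 27.8 and 19.1 ± 7.95 CPM (log2 fold change -1.11, SE 0.323, adjusted p = 0.0311), and the spindle pole kinase AURKA with 27.6 ± 16.9 and 14.4 ± 5.97 CPM (-0.95, SE 0.303, adjusted p = 0.0425). PLK1, KIF23, KIF4A, HMMR and TPX2 tended to be lower, with log2 fold changes between -0.59 and -0.78. ANLN, which encodes the cleavage furrow protein anillin, was the 1 gene of the 50 above 0, at 0.02 (SE 0.257, adjusted p = 0.964). It had 10.5, 5.65, 11.7, 5.52 and 9.31 CPM in the control steers and 29.0, 7.17, 10.97, 8.35 and 9.23 CPM in the GLP-2 steers. The value of 29.0 CPM belonged to GLP-2 replicate 1, was the highest of all 22 steers, and left the remaining groups overlapping. Of the 6 kinetochore genes, CENPA, the histone that marks centromeres, fell from 37.5 ± 20.4 to 20.9 ± 7.29 CPM (-0.86, SE 0.276, adjusted p = 0.0435), and NUF2 and NDC80, partners in the outer kinetochore, tended to be lower (-0.93 and -0.80). CENPE was not called (-0.37, adjusted p = 0.404).

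MKI67 and TOP2A, the genes most used as markers of proliferation, did not pass. MKI67 (ENSBTAG00000002444, chromosome 26, start 47507654, end 47537887, minus strand) had 164, 99.8, 281, 74.8 and 309 CPM in the control steers and 208, 77.8, 108, 48.2 and 84.1 CPM in the GLP-2 steers. Its lowest, median and highest values were 66.6, 102 and 241 CPM with casein and 67.2, 86.6 and 163 CPM with casein + GLP-2. The groups overlapped over most of their range, and the log2 fold change between GLP-2 and BSA was -0.66 (SE 0.289, adjusted p = 0.109). The highest value with GLP-2, 208 CPM, was that of GLP-2 replicate 1, and the next was 163 CPM. TOP2A, the topoisomerase that untangles sister chromatids, had 118 ± 63.6 and 84.8 ± 51.5 CPM and a log2 fold change of -0.50 (SE 0.299, adjusted p = 0.236). Its highest GLP-2 value was 226 CPM, again in GLP-2 replicate 1, and its highest BSA value 229 CPM.

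Genes of the G1/S transition and of S phase showed the same mixture. E2F2 and E2F1, the transcription factors that open S phase promoters, fell, with 21.1 ± 16.7 against 8.48 ± 2.96 CPM for E2F2 (log2 fold change -1.33, SE 0.371, adjusted p = 0.0276) and 13.5 ± 7.19 against 7.33 ± 2.82 CPM for E2F1 (-0.89, SE 0.276, adjusted p = 0.0376). RRM2 fell from 82.9 ± 46.3 to 40.3 ± 15.6 CPM (-1.06, SE 0.296, adjusted p = 0.0281). It had 121, 25.3, 127, 46.0 and 139.8 CPM in the control steers and 78.5, 32.7, 50.3, 27.5 and 34.7 CPM in the GLP-2 steers, so that control replicate 2 lay below all 5 GLP-2 steers. TYMS, with 44.3 ± 20.6 and 26.4 ± 12.1 CPM, tended to be lower (-0.76, SE 0.262, adjusted p = 0.0532), as did the thymidine kinase TK1 (-0.63, adjusted p = 0.0582). CCNE1, which encodes cyclin E1, was not called, with 5.02 ± 3.79 and 3.62 ± 1.07 CPM (-0.48, SE 0.328, adjusted p = 0.300). It had 8.32, 4.32, 14.1, 2.98 and 4.42 CPM in the control steers and 4.95, 3.60, 4.81, 1.55 and 2.75 CPM in the GLP-2 steers. Its log2 CPM was 0.85, 1.54, 3.09, 1.89, 1.23 and 1.36 in casein replicates 1 to 6. In casein + GLP-2 replicates 1 to 6 it was 1.56, 2.22, 2.04, 2.16, 2.03 and 1.47. Only casein replicate 3 thus lay above all casein + GLP-2 steers. The difference of CCNE1 between GLP-2 and BSA turned to 0.34 (adjusted p = 0.508) without the 4 MS4A1-high steers.

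**Figure D2:**
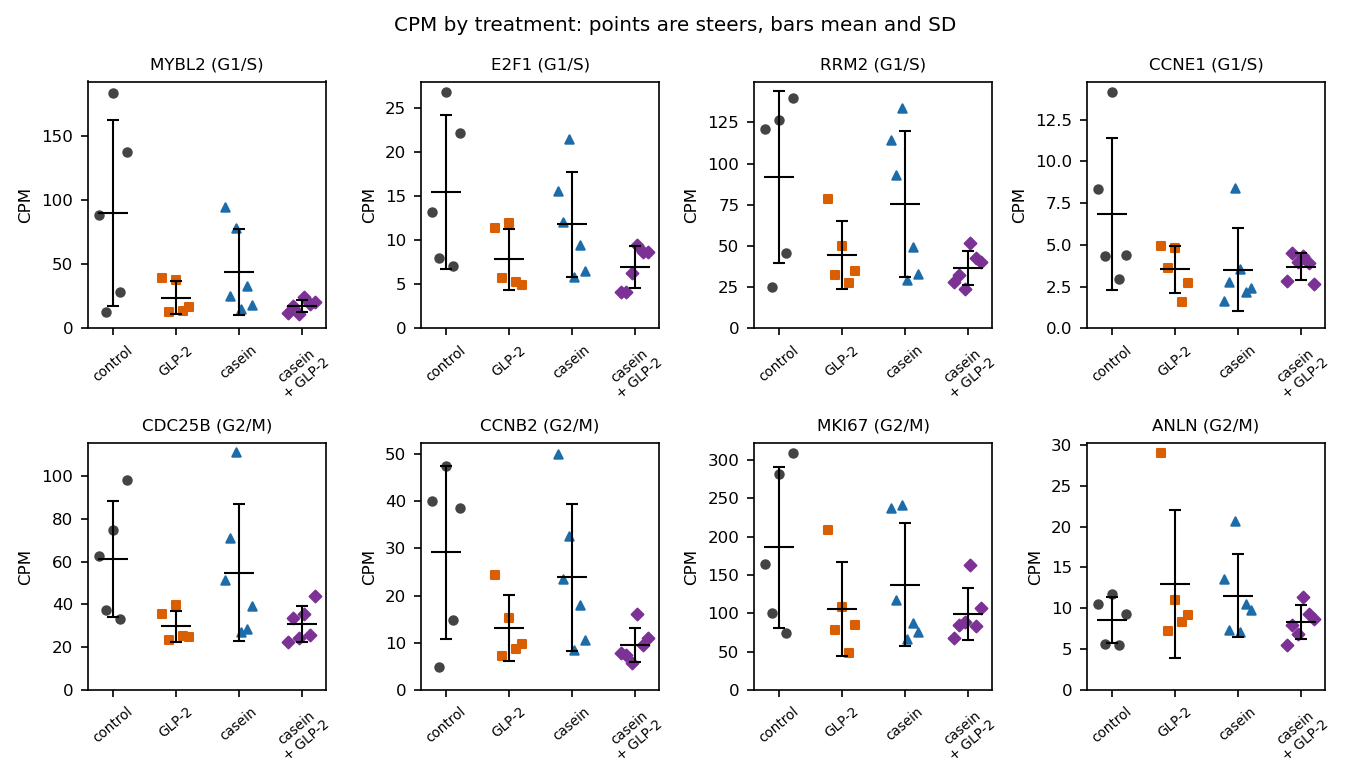
CPM of 4 G1/S and 4 G2/M genes in each treatment, with a point for each steer and bars for the mean and SD (control and GLP-2 n = 5, casein and casein + GLP-2 n = 6), each axis starting at 0. BSA groups spread over wide ranges, and GLP-2 groups overlapped with them. The highest ANLN value, 29.0 CPM, was in a GLP-2 steer.

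**Figure D3:**
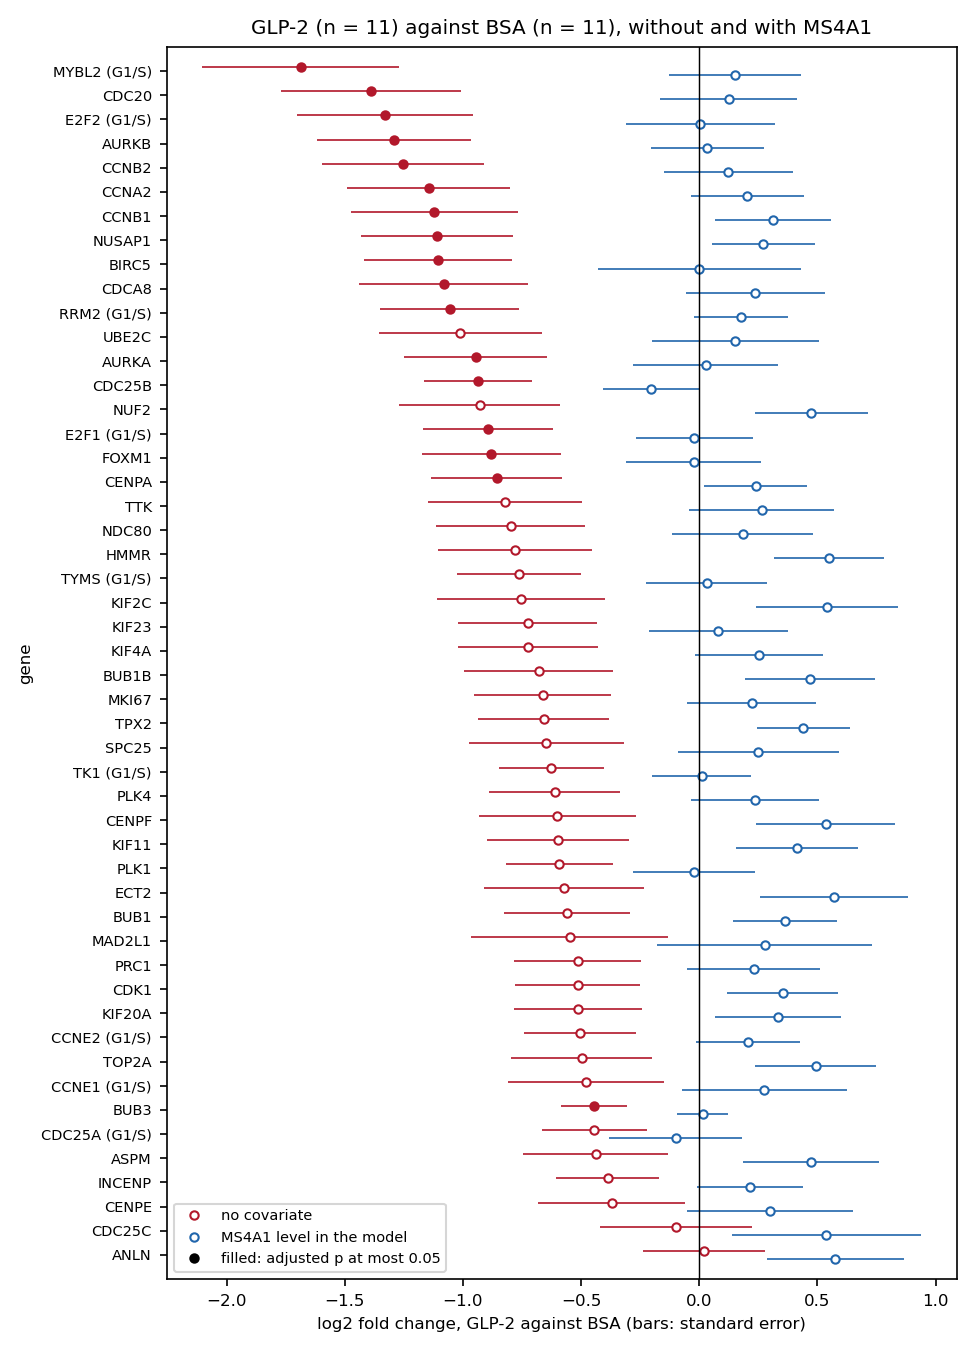
Log2 fold change between GLP-2 and BSA of each of the 50 genes with its SE, from the fit without a covariate and from the fit with MS4A1 in the model. Filled points passed an adjusted p of 0.05, as 17 genes did without a covariate and 0 with MS4A1.

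S and G2/M genes had similar differences. Between GLP-2 and BSA 4 of 9 G1/S genes and 13 of 41 G2/M genes were called lower, compared with 8.37% of all genes, with medians of -0.76 and -0.68. The mean log2 CPM of the 9 G1/S genes was 4.57 ± 0.838 in control, 3.83 ± 0.490 in GLP-2, 4.20 ± 0.643 in casein and 3.57 ± 0.350 in casein + GLP-2 steers. For the 41 G2/M genes it was 4.58 ± 0.856, 4.00 ± 0.702, 4.43 ± 0.767 and 3.77 ± 0.411. Within a steer the G2/M mean minus the G1/S mean was 0.01 ± 0.208 in control, 0.17 ± 0.260 in GLP-2, 0.23 ± 0.277 in casein and 0.20 ± 0.173 in casein + GLP-2 steers, so the treatments overlapped in the balance of both phases. The difference ran from -0.19 in casein replicate 4 to 0.63 in casein replicate 2.

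Markers of other cells were compared between the injections in the same fit. The 16 germinal center and B cell genes summed to 163 to 2624 CPM around a median of 308 in BSA steers and to 136 to 193 CPM around 158 in GLP-2 steers, 14 of the 15 that passed the filter fell, and MS4A1 fell by 5.10 on the log2 scale (SE 0.887, adjusted p = 0.0171). The crypt genes moved less: their sum had a median of 85 CPM (40.6 to 184) in BSA and 67.7 CPM (40.3 to 244) in GLP-2 steers, 0 of the 9 crypt genes that passed the filter of this comparison were called, and the crypt score was 2.11 ± 0.792 in BSA and 1.73 ± 1.04 in GLP-2 steers. Of the epithelial genes 3 of 8 rose, and of the villus enterocyte genes 1 of 8 rose and all 8 had a log2 fold change above 0, while over all genes 5.13% rose and 50.7% were above 0. Summed epithelial genes had a median of 7813 CPM in BSA and 9727 CPM in GLP-2 steers. For villus enterocyte genes the medians were 19325 and 38156 CPM, with overlapping ranges. Summed smooth muscle genes had a median of 189 CPM in BSA and 118 CPM in GLP-2 steers with 0 of 8 called, and summed stromal genes 666 and 417 CPM with 0 of 7 called. Summed plasma cell genes had a median of 1952 CPM in BSA and 785 CPM in GLP-2 steers. For T cell genes the medians were 1027 and 925 CPM, and for macrophage genes 1057 and 985 CPM. The part of each of these in the differences of the cell cycle genes was not tested, other than by the fits with MS4A1 and the crypt score below.

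Genes of the cell cycle outside the 50 were looked at in 3 further lists. Of 31 further S phase genes, 19 fell and 1 rose, with a median of -0.91, compared with 8.37% of all genes that fell and 5.13% that rose. The helicase subunits MCM5 (-1.41, adjusted p = 0.0222) and MCM3 (-1.20, adjusted p = 0.0202) and the GINS subunit GINS2 (-1.68, adjusted p = 0.0202) had the smallest p, and POLA1, the catalytic subunit of DNA polymerase alpha, was the gene that rose (0.45, adjusted p = 0.0424). Of 47 further G2/M genes, 20 fell and none rose, with a median of -0.81, led by CDCA3 (-1.47, adjusted p = 0.0236), KIF22 (-1.22, adjusted p = 0.0239) and HMGB2 (-0.88, adjusted p = 0.0248). Of 30 genes for D cyclins, their kinases, CDK inhibitors and related regulators, 4 fell and 2 rose, shares near those of all genes, with a median of -0.25. CDK4 (-0.73, adjusted p = 0.0297), MYC (-0.77, adjusted p = 0.0324), E2F6 (-0.56, adjusted p = 0.0366) and WEE1, the kinase that holds CDK1 inactive (-1.01, adjusted p = 0.0380), fell. RB1, the retinoblastoma protein that restrains E2F (0.59, adjusted p = 0.0305), and E2F3 (0.67, adjusted p = 0.0290) rose.

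Within each infusion alone, no cell cycle gene passed. In the model of the 4 treatments (15086 genes), 0 of the 50 genes were called between GLP-2 and control, as for 0% of all genes, and 13 had a nominal p up to 0.05 in the lower direction, compared with 8.35% of all genes. The median was -0.68, with -0.95 for the G1/S and -0.59 for the G2/M genes, and the gene with the smallest p was MYBL2 (-1.90, SE 0.595, adjusted p = 0.20). Between casein + GLP-2 and casein again 0 were called (0% of all genes), 23 had a nominal p up to 0.05 in the lower direction (14.2% of all genes), and the median was -0.82, with -0.78 for the G1/S and -0.82 for the G2/M genes. BIRC5 had the smallest p there (-1.43, SE 0.441, adjusted p = 0.118). A DESeq2 Wald test called 1 gene in each of these contrasts. With the block, 8 and 11 genes had a nominal p up to 0.05 and 0 were called. In each of them 48 of 50 genes had a log2 fold change below 0.

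The response to GLP-2 was not shown to depend on casein. For the casein by GLP-2 interaction 0 of the 50 genes were called and 1 had a nominal p up to 0.05, compared with 4.28% of all genes. That gene was ANLN (-1.07, SE 0.504, adjusted p = 0.996), for which the only steers with more than 20 CPM were GLP-2 replicate 1 and 1 casein steer at 20.7 CPM. For MKI67 the interaction was 0.35 (SE 0.591).

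No cell cycle gene was called for the casein infusion. Between casein (n = 12) and water (n = 10), 0 of 50 genes and 0% of 14096 genes were called, and 1 of the 50 had a nominal p up to 0.05 in the lower direction (1.84% of all genes). It was TK1 (-0.52, SE 0.244, adjusted p = 0.994). The median was -0.23, with -0.33 for G1/S and -0.21 for G2/M genes and 44 of 50 below 0, and it was 0.07 without the 4 MS4A1-high steers, of which 3 were control steers. Between casein and control, 1 gene had a nominal p up to 0.05 (5.66% of all genes), CCNE1 at -0.96 (SE 0.439, adjusted p = 0.874), and between casein + GLP-2 and GLP-2 0 genes had one (2.64% of all genes).

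Steers of the same treatment with more MS4A1 had more of nearly every cell cycle gene. With the 4 treatments held in the model, 46 of 50 genes had a positive slope on log2 CPM of MS4A1 at an adjusted p up to 0.05 (edgeR, 16386 genes), compared with 12.9% of all genes, and the median slope was 0.25 log2 units per doubling of MS4A1, 0.21 for the G1/S and 0.25 for the G2/M genes, against 0.00 over all genes. The steepest were MYBL2 (0.40, SE 0.0579, adjusted p = 5.94e-05), CCNB2 (0.36, SE 0.0532), CDC20 (0.36, SE 0.0581), CCNB1 (0.34, SE 0.0485) and CCNA2 (0.33, SE 0.0456). The flattest were BUB3 (0.11, SE 0.0219), CDC25A (0.12, SE 0.0524), INCENP (0.14, SE 0.0435), TK1 (0.15, SE 0.0410) and CCNE1 (0.15, SE 0.0590). MKI67 lay below the median with 0.21 (SE 0.0523, adjusted p = 0.00539). The 4 genes that were not called were CDC25A, CCNE1, CDC25C and MAD2L1, with slopes of 0.12 to 0.19. With the block 41 genes were called, and INCENP was no longer among them. Of the other lists, 5 of 7 stromal and 2 of 8 smooth muscle genes also had a positive slope at this threshold, and 6 of 8 villus genes had a negative one.

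Fewer of these slopes were called without the MS4A1-high steers, at a like median. Without the 4 steers with MS4A1 above 100 CPM the median slope was 0.26 and 39 genes had a nominal p up to 0.05, and 11 genes were called, compared with 3.40% of all genes. They included CCNB2 (0.43, adjusted p = 0.0141), MYBL2 (0.39, adjusted p = 0.0268), CDC20 (0.39, adjusted p = 0.0336) and AURKB (0.29, adjusted p = 0.0458), whereas MKI67 had 0.18 (adjusted p = 0.222) and CCNE1 -0.06. Because MS4A1 falls into separate clusters of steers, its correlations were computed within the 18 steers up to 35.2 CPM, as part of 150 relations of the 50 genes with both markers. The median Pearson r over the 50 genes was 0.606. The highest was that of CCNB2 (r = 0.830, permutation p = 1e-05, the smallest that 100000 resamples can give; rho = 0.794, permutation p = 0.00013; r = 0.813 without the 2 steers farthest from the median of MS4A1). MKI67 had r = 0.383 (permutation p = 0.116; rho = 0.259, permutation p = 0.297), and the lowest was CCNE1 (r = -0.348, permutation p = 0.157; rho = -0.236, permutation p = 0.344).

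The crypt score was followed as widely. With the 4 treatments in the model, 46 of 50 genes had a positive slope on it at an adjusted p up to 0.05 (15834 genes), compared with 11.7% of all genes, and the median slope was 0.64 log2 units per unit of the score, 0.56 for G1/S and 0.64 for G2/M genes, against 0.02 over all genes. MYBL2 (0.92, SE 0.185, adjusted p = 0.00362), ECT2, which directs the cleavage furrow (0.85, SE 0.134), and CDC20 (0.84) were steepest. TYMS (0.65, SE 0.10) had the smallest adjusted p of the genes named here, 0.00095, and MKI67 had 0.59 (SE 0.127, adjusted p = 0.00484). Not called were CCNE1 (0.23, SE 0.197), MAD2L1 (0.32), CDC25B (0.35) and CCNE2 (0.39). With the block 45 genes were called, and the median slope was 0.83. Over all 22 steers the median r with the crypt score was 0.693. The highest was TYMS (r = 0.844, permutation p = 2e-05; rho = 0.867, permutation p = 1e-05; r = 0.800 without the 2 steers farthest from the median score). MKI67 had r = 0.625 (permutation p = 0.002; rho = 0.627, permutation p = 0.00223; r = 0.634 without those 2), and CCNE1 had r = 0.165 (permutation p = 0.464; rho = 0.231, permutation p = 0.302).

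The crypt score did not stand for crypt cells alone. All 8 smooth muscle and all 7 stromal genes also had a positive slope on it at an adjusted p up to 0.05, with medians of 1.41 and 1.13, and 6 of 8 villus genes had a negative one. With a smooth muscle score also in the model, 4 cell cycle genes were called (0.208% of all genes) and 42 had a nominal p up to 0.05, with a median slope of 0.66, and TYMS had 0.68 (adjusted p = 0.0355). With LGR5 alone in place of the score, 13 genes were called (3.33% of all genes). Without the 4 MS4A1-high steers 29 genes were called (5.67% of all genes), with a median of 0.52. The markers themselves were related: within the 18 steers MS4A1 and the crypt score had r = 0.527 (permutation p = 0.0249; rho = 0.486, permutation p = 0.0425; r = 0.471 without the 2 farthest steers), and MS4A1 had a slope of 1.60 (SE 0.528, adjusted p = 0.0350) on the crypt score.

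**Figure D4:**
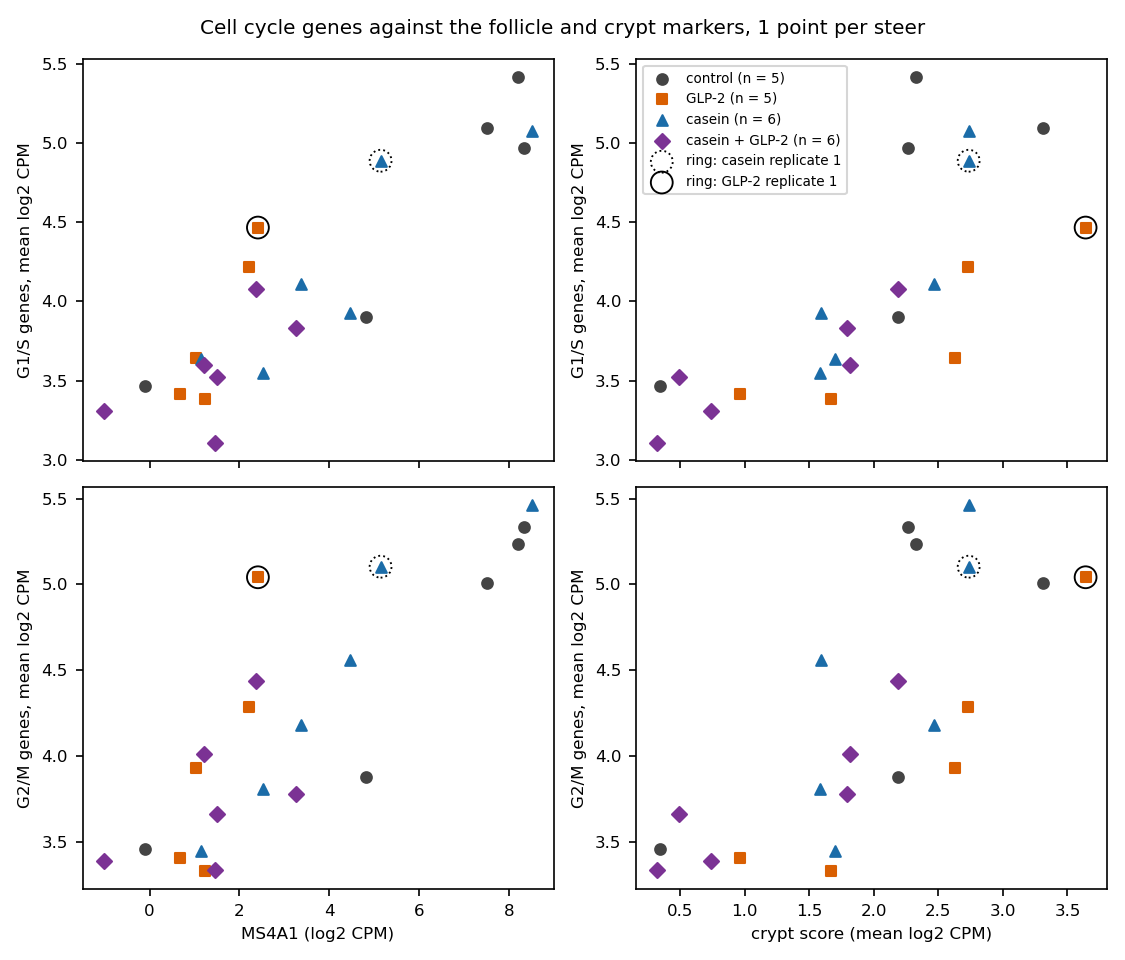
Mean log2 CPM of the 9 G1/S genes (top) and of the 41 G2/M genes (bottom) against log2 CPM of MS4A1 (left) and against the crypt score, a mean log2 CPM (right), with a point for each of the 22 steers. The ring around GLP-2 replicate 1 marks a steer with high cell cycle genes, an MS4A1 level of 5.19 CPM and the highest crypt score of 3.64, and the dotted ring marks casein replicate 1 with 35.2 CPM of MS4A1 and a score of 2.73.

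With both markers in the same model, MS4A1 had more calls than the crypt score without the block and with it. Which marker had the larger slope in most genes, once scaled as described below, depended on the block. Without the block and at a given crypt score, 16 of 50 genes had a positive slope on MS4A1 at an adjusted p up to 0.05 (3.80% of all 16386 genes), 40 had a nominal p up to 0.05 (10.5% of all genes) and the median slope was 0.17, in G1/S and G2/M genes alike. The 16 were MYBL2 and RRM2 of the G1/S genes, the cyclins CCNA2, CCNB1 and CCNB2, the checkpoint genes CDC20, BUB1 and BUB3, the passenger genes AURKB, BIRC5 and CDCA8, the kinetochore genes CENPA and NUF2, and TPX2, NUSAP1 and HMMR of the spindle. RRM2 had 0.24 (SE 0.0448, adjusted p = 0.00276), MYBL2 0.29 (SE 0.0617, adjusted p = 0.00712) and HMMR 0.29 (adjusted p = 0.00355). Outside this group MKI67 had 0.10 (SE 0.0612, adjusted p = 0.331), TYMS 0.10 (adjusted p = 0.176) and CDC25A -0.02 (SE 0.0523, adjusted p = 0.878). With the block 2 genes were called, HMMR (0.30, adjusted p = 0.0149) and RRM2 (0.19, adjusted p = 0.0464), and the median was 0.11. Without the block the number was 26 without control replicate 2, and without the 4 MS4A1-high steers 0 genes were called and 10 had a nominal p up to 0.05.

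At a given level of MS4A1 and without the block, 0 of 50 genes had a slope on the crypt score at an adjusted p up to 0.05 (0.214% of all genes), while 24 had a positive slope at a nominal p up to 0.05 (9.27% of all genes) and the median was 0.33. TYMS tended to follow the score (0.47, SE 0.118, adjusted p = 0.0884). CDC25A had 0.52 (SE 0.136, adjusted p = 0.102), ECT2 0.55 (SE 0.144, adjusted p = 0.102), CENPE 0.59 (SE 0.194, adjusted p = 0.181) and MKI67 0.40 (SE 0.161, adjusted p = 0.263). CCNE1 at -0.16 (SE 0.236) and MAD2L1 at -0.14 were the 2 genes below 0. With the block the median was 0.58, 44 genes had a nominal p up to 0.05 and 1 was called, CENPE (1.13, SE 0.157, adjusted p = 0.0204), and MKI67 had 0.83 (adjusted p = 0.0984).

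To compare both slopes of a gene, each was scaled to the SD of its marker within treatments, 2.14 for MS4A1 and 0.808 for the crypt score. In separate models the median over the 50 genes was 0.527 log2 units per SD of MS4A1 and 0.518 per SD of the crypt score, and in the joint model 0.366 and 0.264. The slope on MS4A1 was the larger one in 37 genes, 7 of 9 G1/S and 30 of 41 G2/M genes, and that on the crypt score in 13. On the side of MS4A1 stood HMMR, a spindle-binding hyaluronan receptor (0.618 and 0.110), CCNB1 (0.610 and 0.176), MAD2L1 (0.483 and -0.111) and CCNE1 (0.411 and -0.129). On the side of the crypt score stood CDC25A, the phosphatase that releases CDK2 at the start of S phase (-0.0384 and 0.419), CENPE (0.0666 and 0.480), CDC25C (0.0616 and 0.423), PLK1 (0.104 and 0.350), ANLN (0.139 and 0.315), TYMS (0.210 and 0.379) and MKI67 (0.219 and 0.321). A test of the difference of both scaled slopes, added after the slopes had been seen, called 0 of the 50 genes (0.189% of all genes), with 2 at a nominal p up to 0.05 (10.4% of all genes). These were HMMR, with more slope on MS4A1 (0.51, SE 0.216, adjusted p = 0.407), and CDC25A, with more on the crypt score (-0.46, SE 0.203, adjusted p = 0.432). With the block the medians per SD were 0.234 for MS4A1 and 0.465 for the crypt score, and the slope on MS4A1 was the larger one in 13 genes and that on the crypt score in 37. The blocked difference was again called in 0 genes (0.0061% of all genes), and 4 had a nominal p up to 0.05 (9.98% of all genes), CENPE, MKI67, CDC25A and CDC25C, all with more slope on the crypt score. CENPE had the smallest p of them (-1.0, SE 0.220, adjusted p = 0.236). With 22 steers and related markers, the data thus did not separate genes that followed the follicle marker from genes that followed the crypt score.

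**Figure D5:**
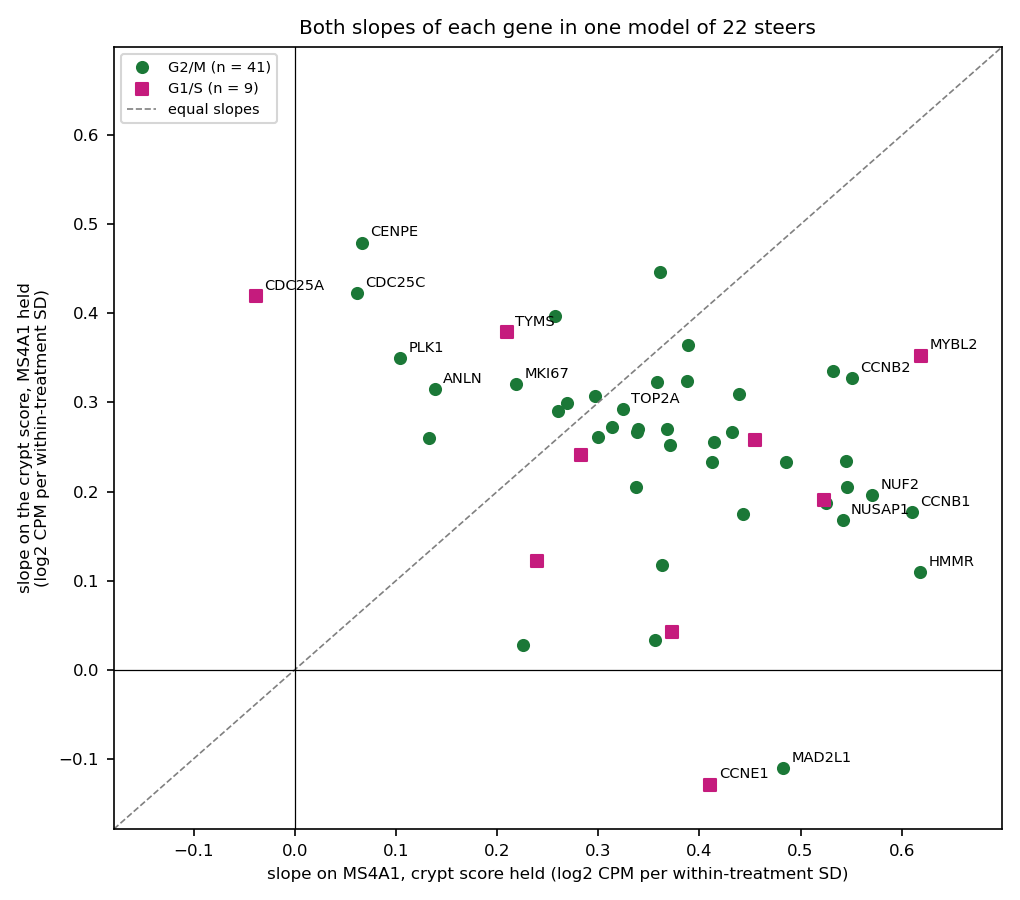
Slope of each of the 50 genes on MS4A1 (x axis) and on the crypt score (y axis) in the same model of 22 steers, in log2 CPM per SD of the marker within treatments, with G1/S and G2/M genes as different points and a dashed line where both slopes are equal. The fit is that without the block. Below the line lie 37 genes and above it 13, among them CDC25A, CENPE, CDC25C, PLK1, TYMS and MKI67.

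The difference between GLP-2 and BSA was no longer seen at a given level of MS4A1. With MS4A1 as a covariate 0 of 50 genes and 0% of 15834 genes were called in edgeR. The median turned from -0.70 to 0.24, 44 genes were above 0 (53.7% of all genes), and the 2 genes with a nominal p up to 0.05 were higher with GLP-2 (1.29% of all genes), TPX2 at 0.44 (SE 0.196) and HMMR at 0.55 (SE 0.232). MYBL2 had 0.15, AURKB 0.03, MKI67 0.22 and CDC25B -0.20 (SE 0.203). MS4A1 itself differs between the injections, so in this fit the effect of GLP-2 and that of the follicle marker cannot be told apart.

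With the crypt score as the covariate, 9 genes were called lower with GLP-2 (3.63% of all 15406 genes) and 26 had a nominal p up to 0.05 in that direction (13.8% of all genes), with a median of -0.51. They were MYBL2 (-1.21, adjusted p = 0.0428), CDC20 (-1.08, adjusted p = 0.0374), AURKB (-1.0, adjusted p = 0.0383), CCNB2 (-0.91, adjusted p = 0.0415), CCNA2 (-0.90, adjusted p = 0.0478), BIRC5 (-0.84, adjusted p = 0.0383), CDC25B (-0.80, adjusted p = 0.0377), RRM2 (-0.78, adjusted p = 0.04997) and TYMS (-0.53, adjusted p = 0.0436). Of these TYMS was not called without the covariate. With the block in the model 0 genes were called, 13 had a nominal p up to 0.05 and the median was -0.34. Without the 4 MS4A1-high steers 0 genes were called. Single steers moved the number as well: it was 0 without casein replicate 2, casein + GLP-2 replicates 3 or 4, control replicates 1 or 3 or GLP-2 replicates 1, 4 or 6, 1 without casein replicate 1, 2 without control replicate 5 or GLP-2 replicate 3, 3 without casein replicate 3 or casein + GLP-2 replicate 6 and 4 without casein + GLP-2 replicate 5, and it was 14 without casein replicate 4 and 15 without casein replicate 6.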

How the data were processed

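RNA-seq of jejunal mucosa was used for 22 steers. Reads had been aligned by the authors to ARS-UCD1.2, and raw gene counts and FPKM values were deposited. The submitters' processing notes name HISAT2 2.0.5, StringTie 1.3.3b, featureCounts 1.5.0-p3 and DESeq2 1.20. Whether the counting used strand is not given in the sources used here. FPKM, the deposited counts per gene length and library size, served for levels between genes and in 1 alternative. A further GLP-2 steer of the study was not used here.

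Counts were analysed in R 4.3.3 with edgeR 4.0.16 (TMM, filterByExpr with a minimum count of 10, quasi-likelihood test, Benjamini-Hochberg adjustment over all genes tested). Calls were made at 0.05, tendencies up to 0.1, and log2 CPM used a prior count of 2. Injections (GLP-2, BSA) and infusions (casein, water) were each compared over pooled groups, following the study. Slopes were fitted with the 4 treatments in the model, and TNFRSF19, which did not pass the filter, was left out of the crypt score. Correlations used 2-sided permutation tests with 100000 resamples, unadjusted. Each steer was a separate animal. The sample labels name the weight block of each steer, so the block pairs steers across treatments. After the treatment means were removed, 13 of 30 pairs of a block had a correlation over 0.1, with a mean of 0.0331, and pairs of different blocks and treatments had a mean of -0.00641. The fit without the block is the one given first, since the study's account of its own comparisons names no block in the model. The blocked value stands beside it where it changes a call. Where a blocked count is given without the share of all genes in that fit, it describes the members only and is not compared with other genes.

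The 50 genes and all lists were chosen with earlier results of these data known. Genes named are MKI67, TOP2A, CDK1, CCNB1, E2F1, CCNE1, TYMS and RRM2, the 10 with the smallest p between GLP-2 and BSA, those called in a comparison, those that moved against most others, the 5 steepest and 5 flattest slopes on MS4A1, and, from the other lists, the 3 with the smallest p in each direction. Others were chosen after their values were seen. Promoter motifs were not analysed here. Alternatives were DESeq2 1.42.0 as a test, its size factors, upper quartile normalization, other filters and thresholds, a robust fit, the other factor or a replicate block in the model, limma 3.58.1 on log2(FPKM + 1), and leaving out each steer in turn. The 4 steers above 100 CPM of MS4A1, the smooth muscle score, the joint covariates and the test of the difference of slopes were chosen after seeing the data. The fits of GLP-2 against BSA, of casein against water and of the slope on MS4A1 were tested on simulated data with 200 changed genes. The other fits were not simulated.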

Additional observations from a re-analysis of the deposited data

How the results depend on the processing

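The number of cell cycle genes called between GLP-2 and BSA, 17, stayed within 1.5 times under DESeq2's size factors (17), upper quartile normalization (18), no filter (12), at least 10 counts in every steer (20), the DESeq2 Wald test (21), a robust fit (17) and the infusion in the model (14). It was 28 at a threshold of 0.1, 7 in limma on log2(FPKM + 1), 0 without the 4 steers above 100 CPM of MS4A1 and 0 with MS4A1 and the crypt score both in the model (median 0.03), and it ran from 3 to 30 when each steer was left out in turn. With the replicate block, which pairs steers across treatments, it was 0, with 25 genes at a nominal p up to 0.05 and a median of -0.62. The DESeq2 Wald test called 1 gene between GLP-2 and control and 1 between casein + GLP-2 and casein, where edgeR called 0, and leaving out steers gave 0 to 2 between GLP-2 and control. The 46 slopes on MS4A1 became 11 without the 4 steers (43 to 47 with each steer left out). The 46 slopes on the crypt score became 29 without the 4 steers, 13 with LGR5 alone and 4 with the smooth muscle score also in the model (34 to 48). With both markers in the model, the 16 slopes on MS4A1 became 2 with the block, 0 without the 4 steers and 12 to 26 with each steer left out, and the 0 slopes on the crypt score became 1 with the block and 0 to 1. The 9 genes called between GLP-2 and BSA with the crypt score in the model became 0 with the block, 0 without the 4 steers and 0 to 15. With MS4A1 and the crypt score both in the model, 27 of the 50 genes were above 0, 5 of the 17 called ones among them. Of the genes followed through every alternative, signs turned there for MKI67 (0.046), TOP2A (0.23), CDK1 (0.19), CCNB1 (0.16), CCNE1 (0.40), RRM2 (0.0317) and NUSAP1 (0.17), and without the 4 steers for TOP2A (0.10), CCNE1 (0.34) and the slope of CCNE1 on MS4A1 (-0.0556). The cause of these changes was not tested. Depth limits MAD2L1, with 8 counts in its lowest steer, and LGR5. It also limits both markers at their low end. MS4A1 had 5 counts in casein + GLP-2 replicate 3 and 9 in control replicate 2. Of the crypt score genes, ASCL2, ZNRF3 and SOX9 were also at 0 in at least 1 steer.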
